A study of Mus musculus with 36 samples.

Results

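A set of 7 genes of ketone body metabolism were followed in the liver of male mice over 12 ages: the enzymes Acat1, Bdh1, Bdh2 and Oxct1 and the monocarboxylate carriers Slc16a1, Slc16a6 and Slc16a7. They were taken by symbol from a table of FPKM values (fragments per kilobase of exon per 1000000 mapped reads) for 21889 symbols, and all 7 of 7 were found. The livers came from C57BL/6 mice (C57BL/6J in the study's methods), 3 at each age, picked from several litters. The ages were GD17.5 (labelled Day -2), Day 0 at birth before the first milk, the suckling ages of Days 1, 3 and 5, then 10, 15 and 20, and after weaning Days 25 and 30, then 45 and 60. No treatment or engineered allele was named, mothers had chow without restriction, and pups of the later ages were weaned at 21 days. RNA was from whole liver, so that fewer cells of a type and less RNA per cell cannot be told apart.

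Ketone bodies are made in liver mitochondria from the acetyl-CoA that fatty acid oxidation yields, and are sent out in the blood as acetoacetate and beta-hydroxybutyrate. Other tissues take them up and turn them back into acetyl-CoA through Oxct1, which adult hepatocytes largely lack. Monocarboxylate carriers of the Slc16 family move ketone bodies, lactate and pyruvate across the cell membrane, and milk, rich in fat, makes ketone bodies a fuel of the suckling pup.

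In these livers the mRNA of Acat1 and Bdh1 was high while the pups suckled and low before birth and after weaning, and that of Bdh2 was low before birth and through suckling and high after weaning. Bdh2 was under 0.5 FPKM in every mouse at GD17.5, Day 0 and Day 3 and climbed to 10.98 ± 1.15 FPKM (SD, n = 3) at Day 60. Oxct1, Slc16a1 and Slc16a6 were high before birth and low in the adult, and Slc16a7 was lowest before birth and highest at Day 1.

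The genes lie on 6 chromosomes. In the NCBI37/mm9 build, with the annotation release that the study used, Acat1 spans chr9:53388627-53418487 on the minus strand, Bdh1 chr16:31422366-31458987 on the plus strand and Bdh2 chr3:134944185-134967390 on the plus strand. Oxct1 spans chr15:3976383-4105344 on the plus strand and Slc16a1 chr3:104442591-104462385 on the plus strand. Slc16a6 spans chr11:109312169-109334912 and Slc16a7 chr10:124663520-124766019, both on the minus strand. FPKM values are per gene, over its exons, and the library kit did not mark strand. Slc16a6 shares 1052 of its 4883 exonic bases with Amz2 on the other strand, so that their reads cannot be told apart there. Amz2 itself had its highest mean, 6.69 FPKM, at GD17.5 and its lowest, 3.23 FPKM, at Day 45, and its part in the Slc16a6 values was not tested. Oxct1 shares 467 exonic bases with BC037032, whose mean was at most 0.0187 FPKM at any age.

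Windows from 250 bases before to 50 bases after the start were at hand for 4 of the 7 genes, as RefSeq gives them on GRCm38.p6. They are shown because their genes followed different courses: Bdh1 was highest in suckling pups, Bdh2 in the adult, and Oxct1 and Slc16a1 were lower in the adult than before birth. Capitals mark the letters that were searched for on both strands. These were AGGTCA, the half-site of nuclear receptors, CACGTG, known as an E-box, TATAAA, a form of the core promoter box that many tissue-specific genes carry, CCAAT, a box close to many gene starts, and finally GGGCGG, a GC box.
Bdh1 (chr16:31422047-31422346, plus strand): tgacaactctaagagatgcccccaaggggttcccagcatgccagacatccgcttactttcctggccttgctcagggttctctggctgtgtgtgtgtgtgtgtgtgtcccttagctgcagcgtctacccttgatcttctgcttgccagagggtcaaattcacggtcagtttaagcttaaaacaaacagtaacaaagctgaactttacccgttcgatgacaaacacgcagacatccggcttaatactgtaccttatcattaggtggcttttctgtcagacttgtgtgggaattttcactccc
Bdh2 (chr3:135280971-135281270, plus strand): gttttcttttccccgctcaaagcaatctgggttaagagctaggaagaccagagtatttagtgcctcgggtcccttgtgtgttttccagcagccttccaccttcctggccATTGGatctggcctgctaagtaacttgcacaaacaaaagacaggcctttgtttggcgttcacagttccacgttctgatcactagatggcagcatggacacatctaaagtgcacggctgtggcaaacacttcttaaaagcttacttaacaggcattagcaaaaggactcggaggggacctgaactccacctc
Oxct1 (chr15:4026178-4026477, plus strand): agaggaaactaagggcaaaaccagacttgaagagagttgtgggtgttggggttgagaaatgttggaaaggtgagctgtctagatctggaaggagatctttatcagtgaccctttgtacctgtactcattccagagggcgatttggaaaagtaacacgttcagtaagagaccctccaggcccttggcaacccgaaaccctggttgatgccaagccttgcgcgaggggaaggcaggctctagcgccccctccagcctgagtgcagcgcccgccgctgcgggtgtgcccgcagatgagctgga
Slc16a1 (chr3:104638414-104638713, plus strand): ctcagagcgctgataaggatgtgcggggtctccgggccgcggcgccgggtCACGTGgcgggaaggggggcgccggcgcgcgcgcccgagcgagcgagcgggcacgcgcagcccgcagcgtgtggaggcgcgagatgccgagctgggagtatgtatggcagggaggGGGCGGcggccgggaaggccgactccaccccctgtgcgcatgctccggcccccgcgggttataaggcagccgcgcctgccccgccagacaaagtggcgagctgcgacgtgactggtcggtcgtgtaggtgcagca

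The Slc16a1 window held an E-box at position -200, counted from the start of the gene, and a GC box at position -85. The Bdh2 window held the CCAAT letters on the other strand at position -141, and the Bdh1 and Oxct1 windows shown held none of the letters. A further Bdh1 window, at chr16:31428503-31428802, held a GC box at position 16. Of 32851 such windows, 16.3% held the half-site, 7.15% the E-box, 13.6% the TATAAA letters, 37.4% those of the CCAAT box and 35.7% the GC box. Pairs of the half-site in the same direction with 1 base between them were in 13 windows, none of them of these genes. The windows also differed in base composition. G and C made up 73.7% of the Slc16a1 window, more than in 94.9% of all windows. The share was 48.3% in the Bdh1 window shown, 48.7% for Bdh2 and 55.3% for Oxct1. In the further Bdh1 window it was 63.7%, more than in 79.1% of all windows. The CpG content of the Slc16a1 window was 1.06 times that expected from its bases, and the median of all windows was 0.384. These are descriptions of letters and not of binding.

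Each age was compared with Day 60, and 3 pairs of neighbouring ages with each other (GD17.5 and Day 0, Day 0 and Day 1, Day 20 and Day 25), by limma on log2(FPKM + 1), so that differences of low genes are understated. A gene was called at an adjusted p under 0.05 over the 11149 genes tested. All 7 genes were called in at least 1 age against Day 60, and so were 90.7% of all genes tested, so that the count says little about these genes. The share of all genes called against Day 60 was 75.1% before birth, 63.9% on Day 0, 65.0% on Day 1, 66.0% on Day 3, 65.4% on Day 5, 46.0% on Day 10, 27.4% on Day 15, 15.9% on Day 20, 7.42% on Day 25, 3.56% on Day 30 and 0.233% on Day 45. Bdh2 was called at 9 ages, Bdh1 and Slc16a1 at 7, Acat1, Oxct1 and Slc16a7 at 6 and Slc16a6 at 4. Where each library was scaled by its upper quartile, Slc16a6 lost its calls at Days 1, 3 and 5 (adjusted p = 0.0639 to 0.197), Slc16a7 at Days 5 and 10 (adjusted p = 0.328 and 0.0871), Acat1 at Days 0 and 1 (adjusted p = 0.312 and 0.0762), and Bdh1 and Slc16a1 at Day 0 (adjusted p = 0.272 and 0.114). In transcripts per 1000000 (TPM), Acat1, Bdh1 and Slc16a1 lost theirs at Day 0, Slc16a7 at Day 10 and Bdh2 at Day 25. All these comparisons share the Day 60 mice. Slc16a7 lost its calls at Days 10 and 20 without any 1 of these 3 mice (adjusted p = 0.0668 to 0.0942). Without Day 60 replicate 1 it also lost that at Day 15 (adjusted p = 0.0563). Acat1 and Bdh1 lost theirs at Day 0 without replicate 1 or 3 of Day 60 (adjusted p = 0.0535 to 0.0989), and Slc16a6 lost that at Day 1 without replicate 2 (adjusted p = 0.123).

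**Figure D1:**
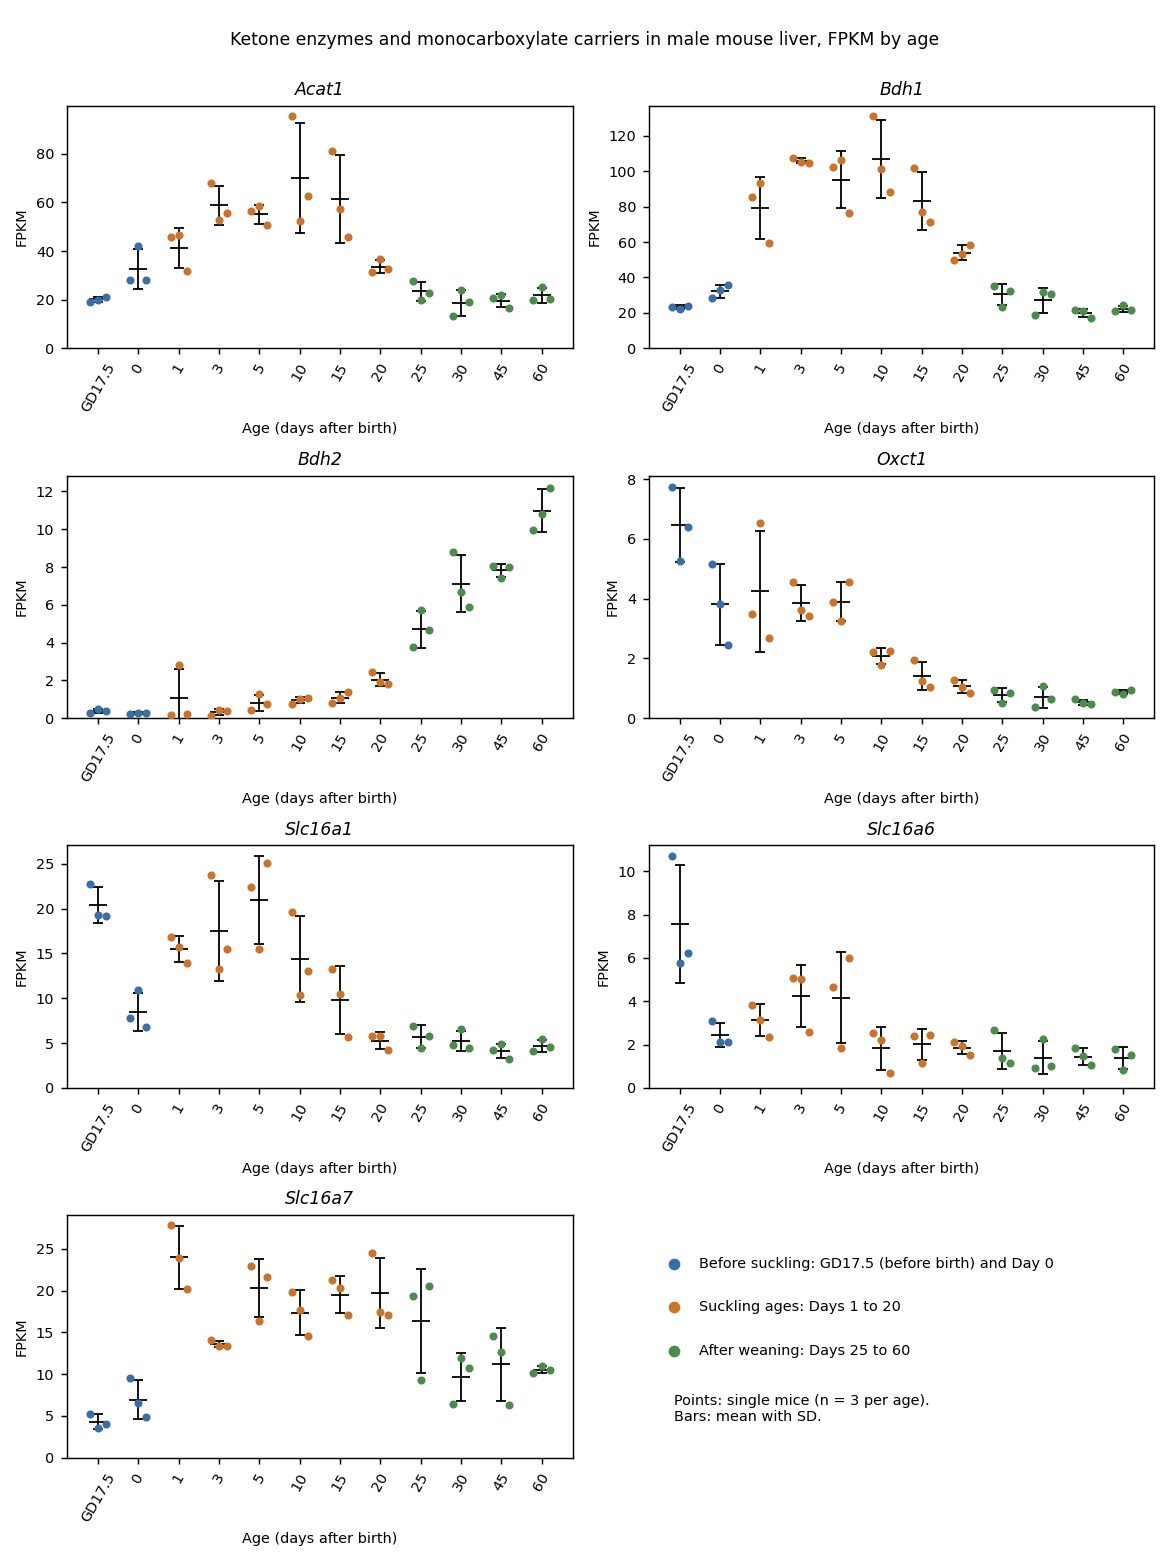
FPKM (vertical axes, from 0) of the 7 genes by age (horizontal axes), with 1 point per mouse, 3 per age, and bars for the mean with SD; the lower end of the Bdh2 bar at Day 1 falls below 0 and is not drawn. Acat1 and Bdh1 have their highest means at Day 10, where replicate 1 is the highest mouse for both. Bdh2 climbs to 10.98 FPKM at Day 60, and Oxct1 and Slc16a6 are highest at GD17.5.

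Acetyl-CoA acetyltransferase 1 (Acat1), the mitochondrial thiolase that joins acetyl-CoA units at the entry to ketone synthesis and splits them again in ketone use, rose at birth. Acat1 was at 19.08, 20.03 and 21.16 FPKM in the 3 mice of GD17.5 and at 27.92, 42.22 and 28.12 FPKM at Day 0. The ages did not overlap, and the log2 difference was 0.65 ± 0.22 (SE, adjusted p = 0.0142). Without the highest mouse of Day 0 it was 0.46, with an adjusted p of 0.106. Acat1 reached 95.71, 52.36 and 62.74 FPKM at Day 10, its highest mean, and in these mice the spread was also the widest. At Day 20 the values were 31.47, 36.60 and 32.62 FPKM. At Day 30, the lowest mean, they were 13.19, 23.80 and 19.17 FPKM. The highest mean was 3.75 times the lowest. Over the 18 mice of the suckling ages (Days 1 to 20) Acat1 had a median of 52.6 FPKM with a range of 31.5 to 95.7. Over the 12 mice after weaning (Days 25 to 60) the median was 20.5 FPKM with a range of 13.2 to 27.6, so that the groups did not overlap. The log2 difference was 1.27 ± 0.10 (SE, adjusted p = 2.48e-12). In the order of its 12 age means only 2 of 11 neighbouring pairs did not overlap in range, Day 5 over Day 1 and Day 0 over Day 25.

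3-hydroxybutyrate dehydrogenase, type 1 (Bdh1) is the mitochondrial enzyme that converts acetoacetate into beta-hydroxybutyrate and back. On the log2(FPKM + 1) scale, Bdh1 had the largest difference between suckling and weaned mice among the 6 genes that were higher in suckling mice. That scale understates differences of low genes such as Oxct1. The ratio of Bdh1 to Oxct1 in FPKM had a median of 35.7 in suckling mice and 37.1 in weaned mice. By this ratio Bdh1 did not stand out from Oxct1. Bdh1 was at 23.55, 21.94 and 23.98 FPKM at GD17.5 and at 28.42, 32.81 and 35.72 FPKM at Day 0, a log2 difference of 0.46 ± 0.19 (SE, adjusted p = 0.0432). This call was lost in TPM (adjusted p = 0.0802) and without any of the 3 mice of GD17.5 or replicate 2 or 3 of Day 0 (adjusted p from 0.0653 to 0.138). At Day 1 it was at 85.30, 93.23 and 59.51 FPKM, and no mouse of Day 1 overlapped with Day 0. The log2 difference was 1.25 ± 0.19 (SE, adjusted p = 1.38e-05). The 3 mice of Day 3 were close together at 107.6, 105.3 and 104.9 FPKM. Those of Day 10, with the highest mean of 107.1 ± 22.1 FPKM (SD, n = 3), were at 131.4, 101.4 and 88.31 FPKM. From Day 20, at 50, 53.37 and 58.39 FPKM, Bdh1 fell to 35.17, 23.47 and 32.53 FPKM in the mice of Day 25. This log2 difference was -0.82 ± 0.19 (SE, adjusted p = 0.00526), and -0.65 without Day 25 replicate 2 (adjusted p = 0.063). The mice of suckling ages had a median of 90.8 FPKM (50 to 131.4) and those after weaning 22.5 FPKM (17.1 to 35.2), without overlap, at a log2 difference of 1.76 ± 0.09 (SE, adjusted p = 6.23e-17). At GD17.5 Bdh1 was near its adult level, with a log2 difference from Day 60 of 0.05 ± 0.19 (SE, adjusted p = 0.808), but this turned to -0.53 (adjusted p = 0.00307) where each library was scaled by its upper quartile.

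3-hydroxybutyrate dehydrogenase, type 2 (Bdh2) is a cytosolic dehydrogenase that shares its name with Bdh1 but belongs to another branch of the short-chain dehydrogenases. Bdh2 was at 0.272, 0.479 and 0.366 FPKM at GD17.5 and at 0.215, 0.282 and 0.277 FPKM at Day 0, its lowest mean. At Day 1 the 3 mice were at 0.178, 2.81 and 0.208 FPKM, and the high value was in replicate 2. By Day 20 Bdh2 had come to 2.42, 1.90 and 1.78 FPKM. The weaned mice of Day 25 had 3.74, 5.72 and 4.66 FPKM and those of Day 30 8.78, 6.67 and 5.86 FPKM. Values of 8.05, 7.43 and 8.01 FPKM followed at Day 45, and 9.93, 10.79 and 12.21 FPKM at Day 60. From Day 15 to Day 30 every age lay above the one before without overlap, and Day 60 lay above Day 45 in the same way. The highest mean was 42.6 times the lowest, the widest range of the 7 genes. The log2 difference from Day 20 to Day 25 was 0.90 ± 0.26 (SE, adjusted p = 0.0292). Scaling to TPM gave an adjusted p of 0.0629. The 1 added to each value also weighs less in TPM, since summed FPKM was below 1000000 in every library. A pseudocount of 0.1 in place of 1 gave 0.166, and leaving out replicate 2 or 3 of either age gave 0.0749 to 0.149. Suckling mice had a median of 0.907 FPKM (0.113 to 2.81) and weaned mice 7.72 FPKM (3.74 to 12.2), a log2 difference of -2.12 ± 0.12 (SE, adjusted p = 1.12e-15). The lowest value, 0.113 FPKM at Day 3, stood for about 11 fragments at the estimated depth, a counting error of 30.2%.

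3-oxoacid CoA transferase 1 (Oxct1), the enzyme that commits acetoacetate to oxidation, was highest before birth. Oxct1 was at 7.75, 5.26 and 6.39 FPKM at GD17.5 and at 5.16, 3.82 and 2.44 FPKM at Day 0, and all mice of Day 0 were below those of GD17.5. The log2 difference was -0.66 ± 0.21 (SE, adjusted p = 0.00941). It missed the threshold under upper quartile scaling (-0.42, adjusted p = 0.0857), without GD17.5 replicate 1 (-0.54, adjusted p = 0.0595) and without Day 0 replicate 3 (-0.44, adjusted p = 0.0962). Day 1 had 3.49, 6.54 and 2.69 FPKM, again with replicate 2 on top. Oxct1 then declined to 2.20, 1.77 and 2.25 FPKM at Day 10, where all mice were below those of Days 3 and 5. It was lowest at Day 45, at 0.631, 0.502 and 0.467 FPKM, and its highest mean was 12.1 times its lowest. The medians were 2.47 FPKM (0.843 to 6.54) in suckling mice and 0.718 FPKM (0.378 to 1.08) in weaned mice, with some overlap, at a log2 difference of 1.03 ± 0.10 (SE, adjusted p = 7.76e-11). From Day 15 on, no age was called against Day 60.

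Solute carrier family 16 member 1 (Slc16a1, or Mct1), a widely expressed carrier of lactate and ketone bodies, fell at birth and came back. Slc16a1 was at 22.71, 19.34 and 19.16 FPKM at GD17.5 and at 7.80, 10.88 and 6.83 FPKM at Day 0, without overlap and with a log2 difference of -1.19 ± 0.25 (SE, adjusted p = 0.000249). At Day 1 it was at 16.79, 15.74 and 13.97 FPKM, all above Day 0, at a log2 difference of 0.82 ± 0.25 (SE, adjusted p = 0.0142). This call was lost without Day 0 replicate 3 (adjusted p = 0.0844) or Day 1 replicate 1 (adjusted p = 0.0559). The highest mean was at Day 5, at 22.43, 15.54 and 25.04 FPKM, and its range overlapped with GD17.5. Slc16a1 declined through 19.66, 10.36 and 12.99 FPKM at Day 10 to 5.84, 5.84 and 4.18 FPKM at Day 20. This decline came before weaning: the Day 20 values were within the range of the weaned mice, and Day 25 differed from Day 20 by 0.09 ± 0.25 on the log2 scale (SE, adjusted p = 0.907). Over all suckling ages the median was 13.6 FPKM (4.18 to 25.0) against 4.69 FPKM (3.27 to 6.96) after weaning, a log2 difference of 1.21 ± 0.11 (SE, adjusted p = 1.05e-10). The window of this gene shown above was the richest in CpG of the 4 genes.

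Slc16a6 (Mct7), a less studied member of the carrier family, was the lowest of the carriers at every age but GD17.5. It was at 10.69, 5.76 and 6.22 FPKM at GD17.5 and at 3.09, 2.13 and 2.13 FPKM at Day 0, without overlap. The log2 difference was -1.28 ± 0.31 (SE, adjusted p = 0.0012). The mice of Day 5 were far apart, at 4.65, 1.86 and 5.98 FPKM, and Day 10 held a mouse at 0.705 FPKM beside 2.55 and 2.20 FPKM. The adult livers of Day 60 had 1.81, 0.841 and 1.52 FPKM. Medians were 2.43 FPKM (0.705 to 5.98) in suckling mice and 1.42 FPKM (0.841 to 2.67) in weaned mice. Their log2 difference was 0.57 ± 0.14 (SE, adjusted p = 0.000638), and 0.30 under upper quartile scaling with an adjusted p of 0.0569.

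Slc16a7 (Mct2), a carrier with high affinity for its substrates, was highest on the first day after birth. Slc16a7 was at 5.30, 3.60 and 4.06 FPKM before birth and at 9.50, 6.53 and 4.87 FPKM at Day 0, with overlap and a log2 difference of 0.55 ± 0.26 (SE, adjusted p = 0.0759). Under upper quartile scaling this was 0.76 with an adjusted p of 0.0107, and without Day 0 replicate 3 it was 0.75 with an adjusted p of 0.0328. Without Day 0 replicate 1, the highest mouse, in which skeletal muscle markers summed to 1440 FPKM, it was 0.335 with an adjusted p of 0.34. At Day 1 the 3 mice were at 27.80, 23.91 and 20.20 FPKM, all far above Day 0, at a log2 difference of 1.68 ± 0.26 (SE, adjusted p = 2.2e-05). The mice of Day 3 were lower and close together, at 14.05, 13.41 and 13.35 FPKM. From Day 5 to Day 20 the values lay between 14.5 and 24.5 FPKM. At Day 25, after weaning, 2 mice were still at 19.32 and 20.59 FPKM and the other at 9.25 FPKM, and Day 30 had 6.46, 11.90 and 10.73 FPKM. Suckling mice had a median of 18.8 FPKM (13.4 to 27.8) and weaned mice 10.9 FPKM (6.28 to 20.6), with overlap, at a log2 difference of 0.68 ± 0.12 (SE, adjusted p = 9.96e-06). Under upper quartile scaling this was 0.30 with an adjusted p of 0.0166.

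Set side by side, Bdh1 was called at all 3 steps between neighbouring ages and Slc16a1 at both steps around birth, and no difference between steps was tested. From GD17.5 to Day 0, 2 of the 7 genes were called higher and 3 lower, against 13.1% and 41.4% of all genes tested. Under upper quartile scaling the split of the 7 genes turned to 3 higher and 2 lower. Without that scaling the median difference was -0.12 over the 7 genes and -0.29 over all genes on the log2 scale (-0.08 over all genes under upper quartile scaling). From Day 0 to Day 1, 3 of 7 were called higher and none lower by limma, where 23.7% and 7.88% of all genes were, with medians of 0.48 and 0.19. At an unadjusted p under 0.05 the count of lower genes was also 0. From Day 20 to Day 25, across weaning, Bdh1 was lower and Bdh2 higher, and 3.26% and 3.94% of all genes moved in these directions. The call of 2 genes here fell to 1 without a filter, in TPM or with the smaller pseudocount, and to 0 without Day 25 replicate 2. For the suckling ages against those after weaning, 6 genes were higher and 1 lower, where 68.1% of all genes were higher and 11.7% lower. The median difference was 1.03 over the 7 genes and 0.39 over all genes (0.13 under upper quartile scaling). The first 2 of these comparisons share the Day 0 mice, and the last shares mice with each of the others except the first.

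**Figure D2:**
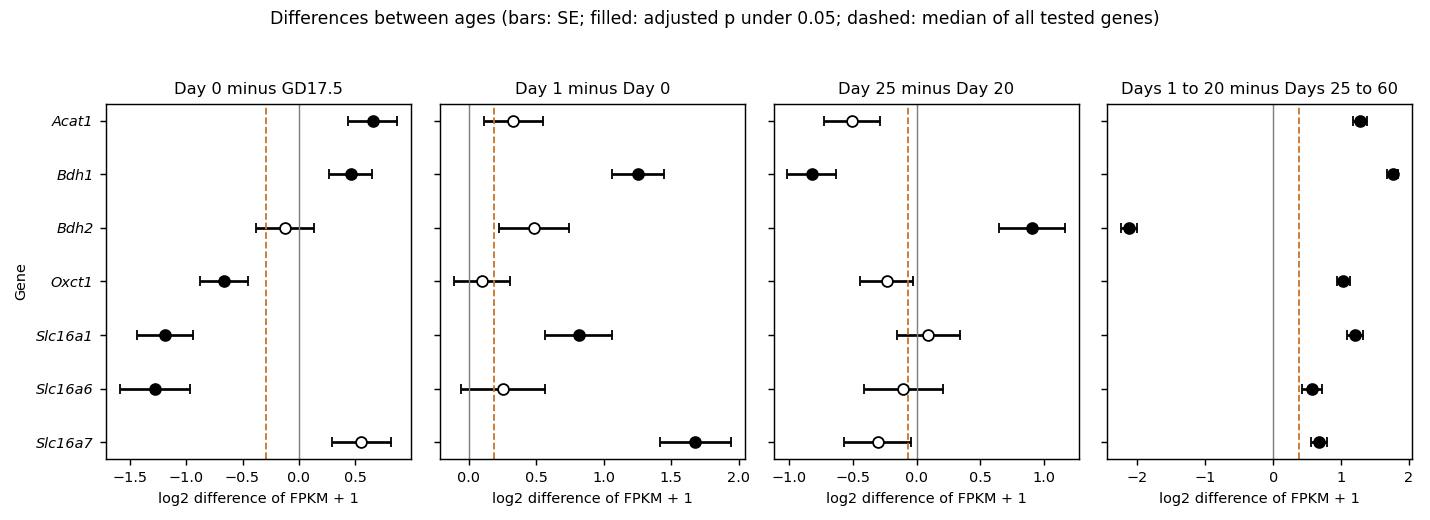
Log2 difference of FPKM + 1 (horizontal axes) for each gene at 3 steps between neighbouring ages and between suckling and weaned mice, with bars for the SE; filled points had an adjusted p under 0.05, and the dashed line is the median of all 11149 genes tested. Bdh1 and Slc16a7 gained most at Day 1 (1.25 and 1.68), and Bdh2 alone was lower in suckling mice (-2.12).

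Ratios within a mouse do not depend on the scaling of its library. The ratio of Bdh1 to Oxct1, of the enzyme that makes beta-hydroxybutyrate to the one that spends acetoacetate, was 3.62 at GD17.5 (geometric mean, 3.04 to 4.17 in 3 mice), 8.85 at Day 0 (5.50 to 14.7) and 19.8 at Day 1 (14.2 to 24.5). It was 60.2 at Day 15 (52.2 to 67.7), the highest mean, and 25.8 at Day 60 (23.2 to 30.5). Weaned mice stayed far above the fetal ratio, at a median of 37.1 (23.2 to 49.6), and the median of suckling mice was 35.7 (14.2 to 69.3). The lowest suckling ratio, 14.2, was in Day 1 replicate 2, which also held transcripts of kidney genes. Bdh1 and Oxct1 were thus both lower after weaning while the range of their ratio in weaned mice lay within that of suckling mice.

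The ratio of Slc16a7 to Slc16a1 was lowest before birth and above 1 in every mouse from Day 10 on. It was 0.209 at GD17.5 (0.186 to 0.233), 0.805 at Day 0 (0.600 to 1.22) and 1.54 at Day 1 (1.45 to 1.66). At Day 3 it was back at 0.801 (0.590 to 1.01), at Day 5 it was 0.978 (0.866 to 1.06), and it climbed to 3.71 at Day 20 (2.98 to 4.20) and was 2.26 at Day 60 (2.02 to 2.49). Of the summed FPKM of the 3 carriers, Slc16a1 made up 63.7% ± 4.51 (SD, n = 3) at GD17.5 and 19.8% ± 2.91 at Day 20, and Slc16a7 13.3% ± 0.691 and 73.2% ± 3.52. The sum of the carriers was lowest at Day 30 (16.4 ± 4.26 FPKM), nearly as low at Day 0 (17.9 ± 3.56 FPKM), and 42.6 ± 5.95 FPKM a day later.

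The 2 dehydrogenases first moved apart and then approached each other. Bdh1 exceeded Bdh2 by a ratio of 63.8 at GD17.5 (45.8 to 86.6), 126 at Day 0 (116 to 132), 166 at Day 1 (33.2 to 480) and 405 at Day 3 (261 to 953), and by 2.04 at Day 60 (1.76 to 2.26). The lowest ratio of Day 1, 33.2, was in replicate 2, which also held transcripts of kidney genes. Over all suckling mice the ratio lay between 20.6 and 953, and over weaned mice between 1.76 and 9.39. The ratio of Bdh1 to Acat1 moved over a narrower range. It was 1.0 at Day 0 (0.777 to 1.27), 1.92 at Day 1 (1.87 to 2.01), without overlap, and 1.03 at Day 60 (0.959 to 1.07).

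**Figure D3:**
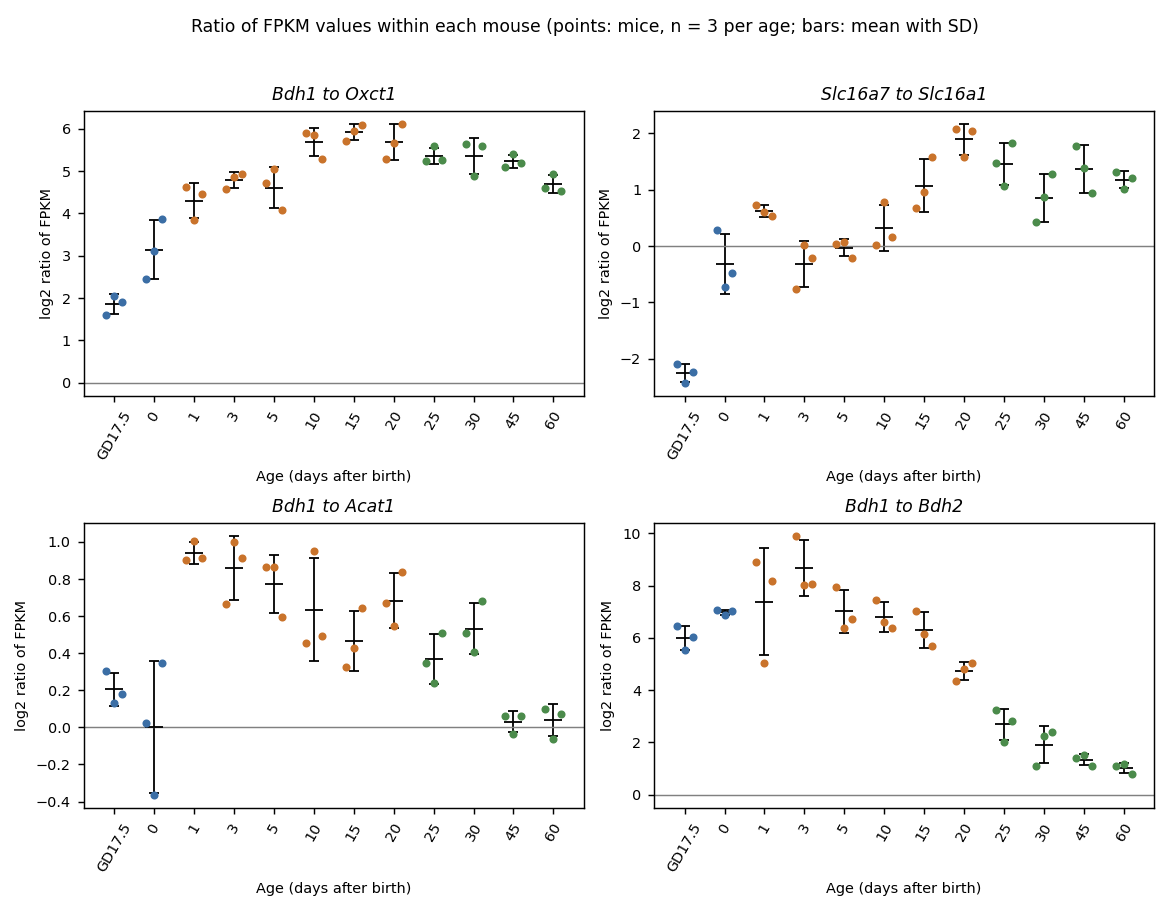
Log2 ratio of FPKM within each mouse (vertical axes) by age (horizontal axes) for 4 pairs of genes, with points for the mice (blue for GD17.5 and Day 0, orange for suckling ages, green after weaning) and bars for the mean with SD. The ratio of Bdh1 to Oxct1 is highest at Day 15 (60.2) and falls to 25.8 at Day 60, that of Slc16a7 to Slc16a1 is lowest at GD17.5 and highest at Day 20, and that of Bdh1 to Bdh2 is highest at Day 3 and lowest at Day 60.

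Over the 12 age means of log2(FPKM + 1), Acat1 and Bdh1 followed each other (r = 0.964), and the same mouse was the highest for both in 9 of 12 ages. Oxct1 followed Slc16a6 (r = 0.908) and Slc16a1 (r = 0.906). Slc16a7 and Slc16a1 had little in common (r = 0.0641), and Bdh2 went against Oxct1 (r = -0.867). The ages share libraries across genes, so these values describe the courses only. Among 6853 other genes that reached 5 FPKM, the most alike to Bdh1 were Tgfbi and Lepr (both r = 0.985) and Epha1 (r = 0.983), and to Acat1 Tgfbi (r = 0.967), Flt4 (r = 0.965) and Bdh1. The most alike to Bdh2 were C730048C13Rik (r = 0.989), Sdr9c7 (r = 0.987) and Sucnr1 (r = 0.984), each with its highest mean at Day 60. Oxct1 was matched by Tnfrsf21 (r = 0.997), Mark2 and Uba2 (both r = 0.996), all highest at GD17.5. Slc16a1 was matched by Cstf3 (r = 0.986), Ptrh2 (r = 0.981) and Wbp5 (r = 0.978), and Slc16a6 by Anln and Ppp1r7 (both r = 0.981) and Hspa14 (r = 0.98). Slc16a7 was matched by Bckdhb (r = 0.977), a subunit of branched-chain keto acid dehydrogenase, by Peci (r = 0.97) and by Igfbp7 (r = 0.948).

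The rest of the pathway is given by counts, to be read against the 68.1% of all genes tested that were higher and the 11.7% that were lower in suckling than in weaned mice. Of 9 other ketone body genes 5 were tested, and 2 were higher and 3 lower in suckling than in weaned mice. Aacs, the cytosolic enzyme that turns acetoacetate toward lipid synthesis, had the largest rise after weaning, from 1.49, 0.896 and 0.975 FPKM at Day 20 to 14.5, 13.2 and 10.1 FPKM at Day 25. Its log2 difference between suckling and weaned mice was -1.84 ± 0.12 (SE, adjusted p = 1.37e-14). Hmgcs1 was 1 of 3288 symbols listed at 0 in every mouse. The values cannot tell an unexpressed gene from one to which no reads were assigned.

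Of 14 other monocarboxylate carriers and partner proteins 9 were tested, of which 6 were higher in suckling mice and 1 lower, shares near those of all genes. Slc16a5 peaked at Day 15 (19.2 ± 2.64 FPKM), from 0.0411 ± 0.0195 FPKM before birth, and fell to 1.79 ± 1.02 FPKM by Day 60. Its log2 difference between suckling and weaned mice was 1.5 ± 0.13 (SE, adjusted p = 1.4e-11). Slc16a11 went the other way, with its lowest mean before birth (0.451 ± 0.140 FPKM) and its highest at Day 25 (7.17 ± 1.69 FPKM), and a log2 difference of -0.88 ± 0.11 (SE, adjusted p = 5.7e-08).

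All 15 genes of mitochondrial fatty acid oxidation, which feeds ketone synthesis, were tested. From GD17.5 to Day 0, 9 of them were called higher and 1 lower, against 13.1% and 41.4% of all genes. The median log2 difference at this step was 0.46, beside -0.29 over all genes. From Day 0 to Day 1, 12 were higher and none lower by limma (0 also at an unadjusted p under 0.05). Over all genes 23.7% were higher and 7.88% lower at that step. The median log2 difference there was 1.04, beside 0.19 over all genes. In suckling against weaned mice 10 were higher and 1 lower, near the 68.1% and 11.7% of all genes, with a median of 0.29 beside 0.39 over all genes. Cpt1a, the gate for fatty acids into mitochondria, was at 4.05 ± 0.716 FPKM before birth and at 37.3 ± 22.6 FPKM on Day 0. This was a log2 difference of 2.77 (adjusted p = 4.32e-08 by limma), and that from Day 0 to Day 1 was 2.16 (adjusted p = 7.51e-06). Cpt1a was at 154 ± 29.8 FPKM on Day 1 and ended at 40.6 ± 1.62 FPKM on Day 60. It differed between suckling and weaned mice by 1.63 ± 0.14 (SE, adjusted p = 2.77e-11). Cpt2 was the gene that was lower in suckling mice, by -0.23 ± 0.06 (SE, adjusted p = 0.000687). Of 5 regulators tested, 3 were higher in suckling mice (68.1% of all genes were), and Ppara, a receptor for fatty acids, differed by 0.93 ± 0.17 (SE, adjusted p = 1.07e-05). The 4 lactate and pyruvate genes tested were higher in suckling mice, and Ldhb differed by 1.28 ± 0.12 (SE, adjusted p = 1.73e-10).

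Markers of other cell types moved with some of these values. The summed FPKM of 9 erythroid markers, of 12 listed, was 3319 to 4167 before birth, 1313 to 1891 on Day 0, 614.8 to 746.7 on Day 1 and 33.4 to 88.5 after weaning. From GD17.5 to Day 0 it fell, as did Oxct1, Slc16a1 and Slc16a6. From Day 0 to Day 1 it fell while the means of Oxct1, Slc16a1 and Slc16a6 rose. Of these rises only that of Slc16a1 was called. From Day 1 to Day 3 its mean rose from 683.2 to 1205 FPKM, as did those of Slc16a1 and Slc16a6, while that of Oxct1 did not. From Day 5 to Day 20 its mean fell from 723.5 to 67.4 FPKM, and those of Oxct1, Slc16a1 and Slc16a6 fell as well. The part of erythroid cells in the levels of these genes was not tested. The 8 hepatocyte markers summed to 9966 to 85148 FPKM and were lowest at GD17.5. Skeletal muscle markers summed to 1440 FPKM in Day 0 replicate 1, which had the highest Oxct1 of its age (5.16 FPKM). Without this mouse the Oxct1 difference from GD17.5 was -0.86 (adjusted p = 0.0023). The muscle markers also summed to 99.06 FPKM in Day 10 replicate 1, beside 9.66 and 1.84 FPKM in replicates 2 and 3. That mouse was the highest of Day 10 for Acat1 (95.71 FPKM) and Bdh1 (131.4 FPKM), and a link was not tested. Exocrine pancreas markers summed to more than 100 FPKM in 19 of 36 mice, and up to 21608 FPKM in Day 60 replicate 1. Cardiac and adipose markers summed to at most 6.61 and 4.12 FPKM, with 4 of 6 and 3 of 5 of them under 1 FPKM in every mouse, macrophage markers to between 58.9 and 208 FPKM, and proliferation markers to at most 172 FPKM, at GD17.5.

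Day 1 replicate 2, which had the highest Bdh2 and Oxct1 of its age, also held transcripts of kidney genes. All 14 kidney markers were highest in this mouse, with a sum of 100.7 FPKM, against 0.60 FPKM in Day 1 replicate 1, 5.89 FPKM in Day 1 replicate 3 and 0.0346 to 3.60 FPKM at other ages. The list was written after the values had been seen. The Bdh2 difference from Day 0, 0.48 ± 0.26 (SE, adjusted p = 0.155) over all mice, passed the threshold only where replicate 1 (adjusted p = 0.043) or replicate 3 (adjusted p = 0.0371) of Day 1 was left out. Without replicate 2 the Day 1 means were 0.193 FPKM for Bdh2 and 3.09 FPKM for Oxct1, and the differences from Day 0 were -0.08 (adjusted p = 0.776) and -0.20 (adjusted p = 0.482). Those of Bdh1 (1.12, adjusted p = 0.000282), Slc16a7 (1.67, adjusted p = 0.00017) and Slc16a1 (0.80, adjusted p = 0.0382) were still called. Ldhb was also highest of Day 1 in this mouse, at 19.02 FPKM beside 3.97 and 4.79 FPKM. With replicate 1 as the sole mouse of Day 1, the differences from Day 0 were 1.38 for Bdh1, 1.89 for Slc16a7 and 0.93 for Slc16a1. They were -0.095 for Bdh2 and -0.059 for Oxct1. In that fit all 7 genes kept their direction between suckling and weaned mice. It held no spread between mice of Day 1, so its calls are not used here.

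**Figure D4:**
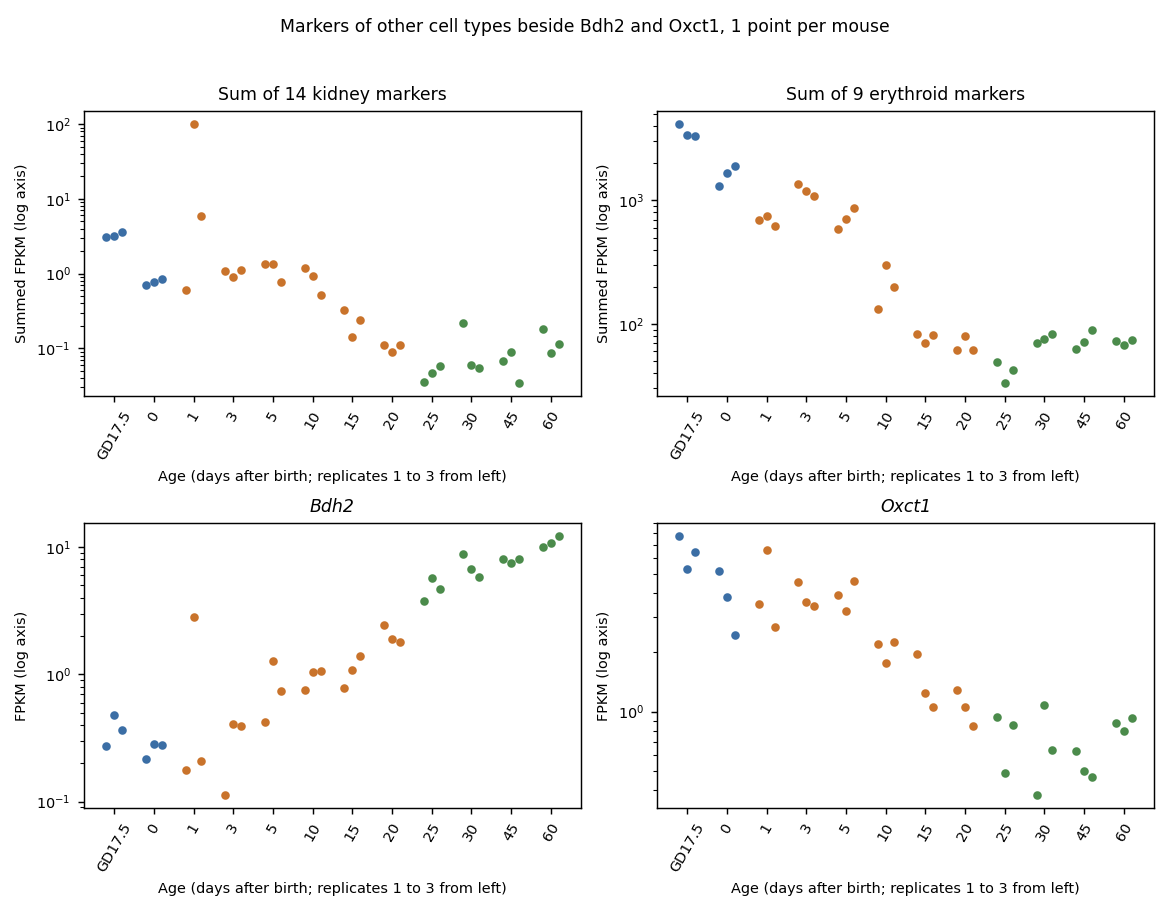
Summed FPKM of 14 kidney markers and 9 erythroid markers, and FPKM of Bdh2 and Oxct1, by age on log axes, with 1 point per mouse and replicates 1 to 3 from left to right at each age (blue for GD17.5 and Day 0, orange for suckling ages, green after weaning). Day 1 replicate 2 stands out at 100.7 FPKM of kidney markers and is the highest mouse of Day 1 for Bdh2 (2.81 FPKM) and Oxct1 (6.54 FPKM), and the erythroid sum and Oxct1 are both highest at GD17.5.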

How the data were processed

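RNA-Seq of poly-A selected liver RNA from 36 male mice (3 at each of 12 ages) was analysed from the table of FPKM values that the authors deposited. Per the labels and the study's methods, reads (paired ends, no strand mark) were mapped with TopHat 1.2.0 to NCBI37/mm9, and FPKM was estimated with Cufflinks 1.0.3 and Ensembl annotation 65. Summed FPKM ranged from 353712 to 450597. No counts were used. From the steps between low values, of which 59.3% lay within 0.1 of a whole fragment, depth was estimated at about 83.0 fragments (in units of 1000000) per library, with a relative depth of 0.89 to 1.15.

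Values were transformed to log2(FPKM + 1), and the 11149 genes that reached an age mean of 1 FPKM were fitted with limma 3.58.1 (R 4.3.3), with 1 mean per age and variances moderated along a trend. P-values were adjusted by Benjamini-Hochberg over all genes within a comparison, and over all genes and 11 comparisons for a change in any age. Replicate r of log2 values within an age were 0.971 to 0.998. Replicate numbers mark different animals at each age. The correlation of deviations from the age means had a median of 0.126 between mice of the same number (-0.68 to 0.829, 198 pairs). Between mice of different numbers the median was -0.0476, and the reason for this difference was not tested. Named genes were the 7 members, their 3 most alike genes, and the largest rise and fall after weaning in each of 5 pathway lists; 1 of these genes is not reported here. The members and lists were chosen with earlier results of these data known. Fits were tested on simulated data. Summaries, Dunnett's comparison and figures were made in Python 3.11.15 (matplotlib 3.10.9, numpy 2.4.6, pandas 2.3.3, scipy 1.17.1).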

Additional observations from a re-analysis of the deposited data

How the results depend on the processing

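The result that all 7 genes differed from Day 60 in at least 1 age held under every alternative run, Dunnett's comparison and adjustment within each comparison included, and stayed at 7 with each mouse left out. For Day 0 against Day -2 (GD17.5) leaving out a mouse gave 3 to 6 calls, for Day 1 against Day 0 2 to 4, for Day 25 against Day 20 0 to 2, and for suckling against weaned ages 7. Day 25 against Day 20 gave 1 call in place of 2 with a pseudocount of 0.1, with no filter and in TPM, where Bdh2 missed the threshold. A fit with the replicate number as a block, which pairs mice by number only, changed no call count (7, 5, 3, 2 and 7). Of 28 differences between ages, refitted 224 times under other settings, 212 refits kept direction and call, and of 1008 refits without 1 mouse 981 did. Of 46 differences from Day 60, 348 of 368 refits under other settings and 1633 of 1656 without 1 mouse did. Signs turned in these: Bdh1 for Day -2 against Day 60 under upper quartile scaling (-0.53) and in TPM (-0.043), and, for Day 1 against Day 0, Oxct1 under upper quartile scaling (-0.028) and with Day 1 replicate 1 alone (-0.059), and Bdh2 with that mouse alone (-0.095). With single mice left out, the log2 difference of Bdh2 for Day 1 against Day 0 ranged from -0.077 to 0.77 and that of Oxct1 from -0.20 to 0.32. For Day 25 against Day 20 it ranged from -0.042 to 0.24 for Slc16a1, from -0.34 to 0.051 for Slc16a6 and from -0.50 to 0.037 for Slc16a7. None of those that turned was called except Bdh1 under upper quartile scaling, and the cause was not tested. The 7 pathway genes named kept direction and call in all 308 refits. The fit with Day 1 replicate 1 alone and the refits of pathway genes were chosen after seeing the data. Depth limits the lowest Bdh2 values, at about 11 fragments, more than those of the other genes, at 111 fragments or more.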
